A study of Homo sapiens with 4 samples.

Results

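Glycolysis enzymes, glucose transporters and genes known to respond to low oxygen were read in HCT116 cells, an established colon cancer cell line. The members are 32 of the 30982 gene names on the array, listed by name, from hexokinases, aldolases and enolases to the hydroxylases that sense oxygen, and they were measured by 53 of its 41000 probes. RNA of 2 clones that stably express an shRNA against N-BLR, a long non-coding RNA, was hybridised to 4 Agilent 2-colour arrays, with 2 arrays for clone #3-1 and 2 for clone #4-7. Every array also received RNA of HCT116 cells carrying the empty vector, and the study used the arrays to ask which protein-coding transcripts differ in the clones. By the labels, Cy5 was the dye of the clone on all 4 arrays and Cy3 that of the empty vector, with no dye swap. Each shRNA is represented by a single selected clone and the control is 1 RNA, so differences between clones and effects of the shRNA cannot be told apart. The titles mark the arrays within a clone as biological repeats, whereas the methods speak of duplicates, so p-values measure only the spread between arrays, which may be technical. No probe carries the name N-BLR, and the knockdown was not checked here.

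Glycolysis turns glucose into pyruvate. Cancer cells commonly send much of that pyruvate to lactate, which lactate dehydrogenase makes, while pyruvate dehydrogenase kinases hold pyruvate back from the mitochondria. Many genes of this pathway are targets of the hypoxia-inducible factors, transcription factors whose alpha subunits are hydroxylated by the EGLN enzymes when oxygen is present and are then degraded through VHL. The same factors are known to raise carbonic anhydrase 9, BNIP3, NDRG1, VEGF, adrenomedullin and the EGLN enzymes themselves. They bind short hypoxia response elements, whose core is written ACGTG or GCGTG.

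Promoter sequence is shown for members whose ratios differed most between the clones. Whether the hypoxia-inducible factors act on them in these cells was not tested. RefSeq promoters of build GRCh38.p14 were matched for 29 of the 32 members, and those of SLC2A3, NDRG1 and VEGF were not in the table. Each window runs from 250 bases before to 50 after a start site, and the 29 genes have 50 windows. On either strand, ACGTG or GCGTG stood in 33 of these 50 windows (66.0%) and in 48.4% of all 35116 windows. ACGTG was in 44.0% of the member windows and 21.4% of all windows, and GCGTG in 40.0% and 36.5%. A match is a run of letters and not a bound site, and genes with several windows count more than once. The 250 bases upstream of the start site are given below, 5′ to 3′ on the gene's strand, for the 5 members with promoters that were furthest apart between the clones and for ADM, the 1 member whose difference passed the threshold in the opposite direction. For HK2, which has several windows, the first listed is shown. Capitals mark the cores and their reverse complements CACGT and CACGC.
ALDOC, chr17:28576896-28577145, minus strand: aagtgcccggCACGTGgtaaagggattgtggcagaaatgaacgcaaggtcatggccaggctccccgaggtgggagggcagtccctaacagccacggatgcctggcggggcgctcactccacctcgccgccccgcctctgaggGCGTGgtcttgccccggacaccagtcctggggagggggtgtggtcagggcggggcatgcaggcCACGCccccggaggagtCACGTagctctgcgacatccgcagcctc
CA9, chr9:35673678-35673927, plus strand: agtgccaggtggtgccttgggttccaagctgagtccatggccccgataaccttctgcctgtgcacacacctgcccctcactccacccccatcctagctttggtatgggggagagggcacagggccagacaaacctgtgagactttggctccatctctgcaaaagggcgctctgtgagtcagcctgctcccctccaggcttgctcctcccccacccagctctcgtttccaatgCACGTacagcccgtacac
BNIP3, chr10:131981924-131982173, minus strand: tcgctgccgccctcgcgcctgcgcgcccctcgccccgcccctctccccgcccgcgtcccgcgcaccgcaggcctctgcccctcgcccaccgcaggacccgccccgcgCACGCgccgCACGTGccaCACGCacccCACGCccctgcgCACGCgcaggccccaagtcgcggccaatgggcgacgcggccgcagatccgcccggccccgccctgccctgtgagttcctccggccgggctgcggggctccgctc
ENO2, chr12:6914330-6914579, plus strand: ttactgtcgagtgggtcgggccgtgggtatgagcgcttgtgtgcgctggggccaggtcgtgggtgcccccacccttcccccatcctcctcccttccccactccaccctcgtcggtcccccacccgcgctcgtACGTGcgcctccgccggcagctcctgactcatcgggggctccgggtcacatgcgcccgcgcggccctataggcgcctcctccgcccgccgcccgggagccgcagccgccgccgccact
HK2, chr2:74833877-74834126, plus strand: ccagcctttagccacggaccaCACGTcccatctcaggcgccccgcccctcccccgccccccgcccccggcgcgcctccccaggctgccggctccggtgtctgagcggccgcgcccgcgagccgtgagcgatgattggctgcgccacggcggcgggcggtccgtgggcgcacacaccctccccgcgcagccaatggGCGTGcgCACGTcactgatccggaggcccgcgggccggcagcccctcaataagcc
ADM, chr11:10304823-10305072, plus strand: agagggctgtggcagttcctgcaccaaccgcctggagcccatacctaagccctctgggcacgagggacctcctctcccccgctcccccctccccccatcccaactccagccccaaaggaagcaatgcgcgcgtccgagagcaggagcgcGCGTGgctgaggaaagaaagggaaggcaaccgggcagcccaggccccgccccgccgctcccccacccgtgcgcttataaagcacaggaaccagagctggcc

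At least 1 of the cores was present upstream in all 6 genes, which were chosen by their differences between the clones. In the first window listed for a gene, neither core stood in HK1, PFKM, PFKP, TPI1, PGAM1, PDK1, EGLN3 or P4HA2. Of these, PDK1 (A_23_P10614) and EGLN3 were 2.12 and 2.09 times apart between the clones. The share of all promoters with a core in the 250 upstream bases alone was not counted. ALDOC and BNIP3 carried the palindrome CACGTG, in which ACGTG is read on both strands, beside further copies of GCGTG or CACGC. The CA9 core begins 18 bases before the start site. In ADM the only match was a GCGTG whose first base lies 101 bases upstream.

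Before any ratio is read, each channel was compared by itself between the arrays of the clones, a check that was chosen after the data were seen. If the labels hold, Cy3 carries the same control RNA on every array and Cy5 carries 2 different clones. The measured signals went the other way. After normalization of all channels to a common distribution, the Cy3 signal of 32 of the 53 member probes differed between the clone #3-1 arrays and the clone #4-7 arrays at p under 0.001, by limma's moderated test, where 18.3% of all 41000 probes did. Of these, 31 were brighter on the clone #3-1 arrays and 1 was dimmer, against 9.84% and 8.46% of all probes. In Cy5, the channel labelled as the clones, 0 of 53 member probes passed and 0.0927% of all probes did. At an unadjusted p under 0.05, 7 member probes differed in Cy5, and by Benjamini-Hochberg adjusted p under 0.05 none did. With that adjusted threshold 36.5% of all probes differed in Cy3 and 0% in Cy5. The median absolute log2 difference of the members was 0.61 in Cy3 and 0.06 in Cy5, beside 0.14 and 0.06 over all probes.

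ALDOC shows what this means for a member. Its normalized log2 signal in Cy3 was 14.07 and 14.08 on the clone #3-1 arrays and 11.53 and 11.44 on the clone #4-7 arrays. In Cy5 it was 12.92 and 12.94 on the clone #3-1 arrays and 12.71 and 12.69 on the clone #4-7 arrays. The channel labelled as a common control was thus 6.02 times as bright on the clone #3-1 arrays (limma adjusted p = 3.25e-05), and the channel labelled as the clones differed by a factor of 1.17 (limma adjusted p = 0.68). BNIP3 gave the same picture, with Cy3 at 14.82 and 14.77 against 13.06 and 13.04, and Cy5 between 14.68 and 14.74 on all 4 arrays. Why the channels behave in this way was not tested. All directions below therefore follow the labels, with Cy5 set over Cy3, and if the channels had been exchanged every sign would turn and every count of higher probes would become a count of lower probes. The sizes of the differences do not depend on this.

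**Figure D1:**
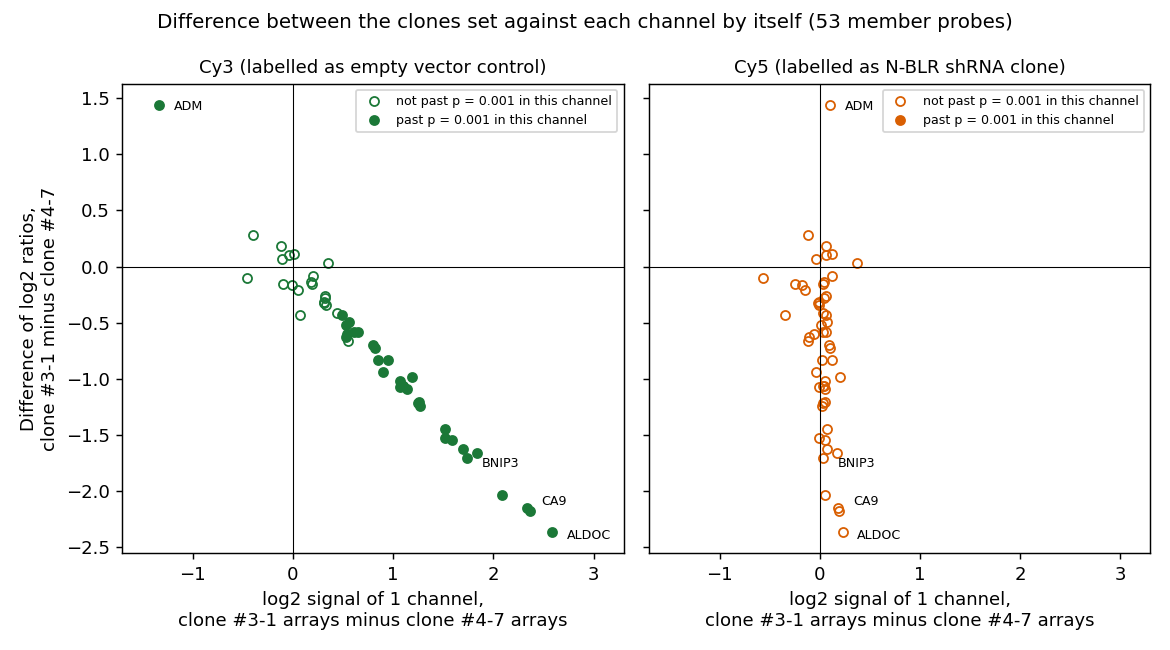
Each point is 1 of the 53 member probes. The vertical axis is the difference of the log2 ratios, clone #3-1 minus clone #4-7, and the horizontal axis is the same difference in the log2 signal of Cy3 (left) or Cy5 (right), with filled points past the threshold of limma's test in that channel. The vertical value equals the Cy5 difference minus the Cy3 difference by construction, and the points spread along Cy3, from -1.33 for ADM to 2.59 for ALDOC, while in Cy5 they lie between -0.56 and 0.38.

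The direction of the labels is also opposite to that of the study at the genes that mark it. E-cadherin (CDH1), the adhesion protein of epithelial cells, had log2 ratios of -2.60 in clone #3-1 and -1.34 in clone #4-7. Vimentin (VIM), an intermediate filament of mesenchymal cells, had 4.45 and 2.39 at A_23_P161190, whereas the study describes clones with more E-cadherin and less vimentin. Of 10 colon epithelial markers, 9 were well above background in both channels on all arrays, and VIL1 was not on any. Markers of other cells were partly above background: 2 of 8 for fibroblasts, 1 of 5 for endothelial cells and 5 of 7 for blood and immune cells, with PTPRC and HBB never above it. Between 68.5% and 72.6% of the 43376 probe spots were well above background in a channel. In bulk RNA, fewer cells of a kind and less RNA per cell cannot be told apart.

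Of the 53 member probes, 47 were well above background in both channels on all 4 arrays, and they covered 30 of the 32 genes. CA9 was above background in Cy5 on all arrays, but in Cy3 on only 1 of the 2 clone #4-7 arrays. The other 5 probes were dim: both for SLC2A3, 1 of 2 for HK1 and 2 of 4 for CA12. None of the members was saturated. The array uses the older names PKM2 and VEGF for PKM and VEGFA. Probe levels depend on the probe, so levels are compared only within a probe. The median SD between the 2 arrays of a clone was 0.02 (log2 ratio) over the member probes in either clone.

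Most member probes past the threshold were lower in clone #3-1 and higher in clone #4-7. In clone #3-1, 29 member probes were lower and 7 higher at p under 0.001 by limma's two-sided moderated test, where 16.4% and 16.3% of all probes were lower and higher (32.7% in either direction). In clone #4-7, 4 were lower and 38 higher, against 15% and 16.1% of all probes (31.1% in either direction). The median log2 ratio of the members was -0.26 in clone #3-1 and 0.56 in clone #4-7, and that of all probes was 0.01 in both. At an adjusted p under 0.05, 54.5% and 52.1% of all probes passed in the clones. In at least 1 channel on every array, 28540 of all 41000 probes and 48 of the 53 member probes were well above background. The shares over all probes thus rest on a set with relatively more dim probes.

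The contrast between the clones was tested directly. It passed at p under 0.001 for 34 probes that were lower in clone #3-1 and for 1, ADM, that was higher, and these 35 probes belong to 25 of the 32 genes. Over all probes 11.6% were lower and 11% higher (22.6% in either direction, and 42.4% at the adjusted threshold). The median difference of the members was -0.60 on the log2 scale and that of all probes 0.003. For 22 of the 53 member probes the ratio passed in each clone by itself with opposite signs, as it did for 3.6% of all probes. The ratios of both clones are set against the same labelled control. Of the 113 results of member probes past the threshold, in a clone or between the clones, 35 missed it under at least 1 of up to 17 alternative settings, and 6 of these were differences between the clones. The number of alternatives under which each missed it is given with its gene. Some results short of the threshold passed under an alternative, and those counts are given for a part of the genes only.

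**Figure D2:**
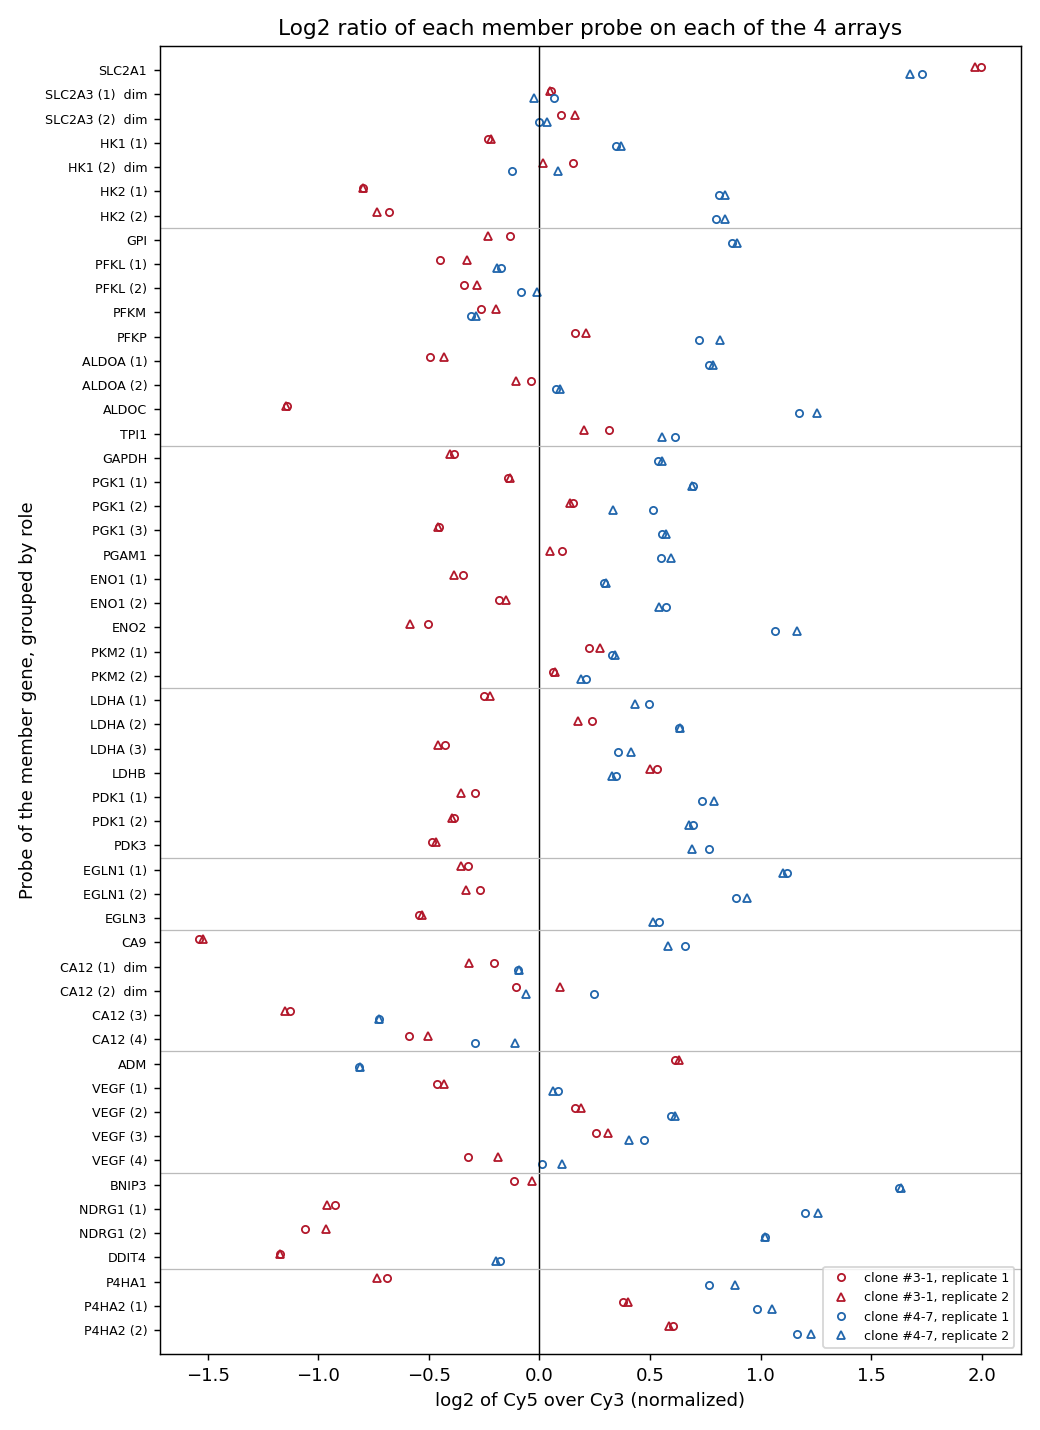
Normalized log2 ratio of Cy5 over Cy3 for the 53 member probes, in rows grouped by role and separated by grey lines, on each of the 4 arrays (red, clone #3-1; blue, clone #4-7; circles, replicate 1; triangles, replicate 2). Probes of 1 gene are numbered, and "dim" marks the 5 probes not well above background. Replicates nearly coincide, most blue points lie to the right of the red ones, SLC2A1 is far to the right in both clones, and ADM lies the other way round.

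Glucose entry and phosphorylation gave the member with the largest ratio shared by the clones. SLC2A1, the basal glucose transporter GLUT1, had log2 ratios of 2.00 and 1.97 on the clone #3-1 arrays and 1.73 and 1.68 on the clone #4-7 arrays. All 4 arrays were high, and the difference between the clones, 0.28 ± 0.04 (SE), missed the threshold (limma adjusted p = 0.0051). This difference passed under 3 of 16 alternatives. In Cy5 the signal of SLC2A1 lay between 13.45 and 13.68 on all arrays and in Cy3 between 11.45 and 11.99. Both probes of SLC2A3, the high-affinity transporter GLUT3, were dim and had ratios between -0.02 and 0.16 that carry no level.

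Hexokinases trap glucose by phosphorylating it. HK2, the isoform known to be induced in tumours, was lower in clone #3-1 and higher in clone #4-7 at both probes. Probe A_23_P398460 read -0.80 and -0.80 in clone #3-1 and 0.81 and 0.84 in clone #4-7, and probe A_32_P175739 read -0.68 and -0.74 and then 0.80 and 0.84. No array of either clone overlapped the other, and the clones were 3.08 and 2.89 times apart (limma adjusted p = 3.5e-05 and 4.55e-05). HK1, the more widely expressed isoform, moved the same way by less at its bright probe, with -0.22 ± 0.01 and 0.36 ± 0.02 (SD, n = 2 each), and missed the threshold in clone #3-1 under 10 and in clone #4-7 under 1 of 17 alternatives.

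In the upper part of the pathway the aldolases, which split fructose bisphosphate, gave the widest gap. ALDOC, the isoform best known from brain, had log2 ratios of -1.14 and -1.15 in clone #3-1 and 1.17 and 1.26 in clone #4-7. The clones were 5.14 times apart (difference -2.36 ± 0.05 SE, limma adjusted p = 2.47e-05), and by absolute size this difference was number 73 of 41000 probes. GPI, which converts glucose phosphate to fructose phosphate, was -0.13 and -0.23 in clone #3-1, not past the threshold, and 0.87 and 0.89 in clone #4-7. The clones differed by -1.06 ± 0.05 (SE, limma adjusted p = 0.000133). The clone #3-1 ratio of GPI passed under 2 of 17 alternatives.

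The phosphofructokinases, which carry out the committed step, gave a separate reading for each isoform. PFKP, the platelet isoform, was 0.19 ± 0.04 in clone #3-1, not past the threshold, and 0.77 ± 0.07 in clone #4-7 (SD, n = 2), with a difference of -0.58 ± 0.05 (SE, limma adjusted p = 0.00075). PFKM, the muscle isoform, was lower in both clones, with -0.23 and -0.30, and the difference of 0.07 did not pass. The PFKM ratio missed the threshold under 9 of 17 alternatives in clone #3-1 and under 4 in clone #4-7, and the PFKP difference under 4 of 16. PFKL, the liver isoform, was lower in clone #3-1 at both probes, with -0.39 and -0.31, and did not pass in clone #4-7 with -0.18 and -0.05. Its clone #3-1 ratios missed the threshold under 5 and 6 of 17 alternatives. TPI1, which interconverts the triose phosphates, was 0.58 ± 0.04 in clone #4-7, where it missed the threshold under 1 alternative, and 0.26 in clone #3-1, where it passed only under 5 of 17, and its difference between the clones of -0.33 ± 0.06 (SE) missed the threshold.

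ALDOA, the main aldolase of most tissues, was read differently by its probes. A_23_P88963, at chr16:29988825-29988971 in build hg17, read -0.50 and -0.43 in clone #3-1 and 0.77 and 0.79 in clone #4-7. A_24_P921584, at chr16:29984584-29984643, read -0.04 and -0.10 and then 0.07 and 0.09, and did not pass p under 0.001 in or between the clones. Its difference between the clones passed under 2 of 16 alternatives. The clones were 2.36 times apart at the first (limma adjusted p = 6.84e-05) and 1.11 times at the second (limma adjusted p = 0.041), although both are well above background. The start of each 60-base probe is shown for comparison with ALDOC and CA9, because the probes of ALDOA gave different readings. Why they did was not tested. The files give positions on hg17, and no gene model of that build was at hand to place the probes in exons.
ALDOA A_23_P88963: caggaggagtatgtcaagcgagccctggcc
ALDOA A_24_P921584: ccgcctcctgcgccgccccttccgaggcta
ALDOC A_23_P78108: tggccagggccaaatagctatgcagagcag
CA9 A_23_P157793: cagttgctgtctcgcttggaagaaatcgct

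Positions of A_23_P88963 and of the CA9 probe span more genome than the 60 bases of the probe, and this holds for 10 member probes in all.

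In the lower part of the pathway all 10 probes were higher in clone #4-7, with ratios from 0.20 to 1.12, while 4 were lower and 1 higher in clone #3-1. Over all probes 16.1% were higher in clone #4-7, and 16.4% lower and 16.3% higher in clone #3-1. ENO2, the neuronal enolase, had -0.50 and -0.59 in clone #3-1 and 1.07 and 1.16 in clone #4-7. The clones were 3.16 times apart (limma adjusted p = 6.24e-05) and no arrays overlapped. ENO1, the common enolase, was 1.58 and 1.65 times apart at its probes, with -0.37 and -0.17 in clone #3-1 and 0.30 and 0.56 in clone #4-7. At A_23_P137391 the clone #4-7 ratio of ENO1 was 0.18 with the authors' deposited table of log10 ratios and missed the threshold under 5 of 17 alternatives, and its clone #3-1 ratio missed it under 1. The clone #3-1 ratio of ENO2 missed it under 2. GAPDH, the dehydrogenase often taken as a loading reference, was -0.39 and -0.40 in clone #3-1 and 0.54 and 0.56 in clone #4-7. It was 1.92 times apart between the clones (limma adjusted p = 0.000101). Its clone #3-1 ratio was -0.18 without normalization between arrays and missed the threshold under 3 of 17 alternatives.

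PGK1, which makes the first ATP of the pathway, differed between the clones by -1.02, -0.83 and -0.28 at its 3 probes, and the last did not pass. In clone #4-7 all 3 were higher, from 0.42 to 0.69, and in clone #3-1 only A_24_P604649 passed, with -0.46 ± 0.003 (SD, n = 2). PGAM1, the phosphoglycerate mutase, was 0.08 in clone #3-1, not past the threshold, and 0.57 in clone #4-7, 1.41 times apart, a difference that missed the threshold under 4 of 16 alternatives. The clone #4-7 ratio of PGK1 at A_24_P254532 missed it under 6 of 17. PKM2, the pyruvate kinase that closes the pathway, was higher in both clones at A_23_P399501, with 0.25 and 0.34. At A_32_P147241 it passed only in clone #4-7, with 0.20 beside 0.07. That 0.20 missed the threshold under 12 of 17 alternatives and was 0.12 with the processed signals of Feature Extraction, the scanner software, which also gave -0.0086 in clone #3-1. The ratios at A_23_P399501 missed it under 8 and 5. The PKM2 differences between the clones, -0.09 and -0.13, did not pass.

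Around pyruvate, 7 of 7 probes were higher in clone #4-7 and 5 of 7 lower in clone #3-1, beside 16.1% and 16.4% of all probes. PDK1 and PDK3 are kinases that switch pyruvate dehydrogenase off. PDK1 was -0.32 and -0.39 at its probes in clone #3-1 and 0.76 and 0.68 in clone #4-7, 2.12 and 2.11 times apart, and in clone #3-1 the first missed the threshold under 6 of 17 alternatives. PDK3 was -0.49 and -0.47 in clone #3-1 and 0.77 and 0.69 in clone #4-7 (difference -1.21 ± 0.05 SE, limma adjusted p = 7.96e-05), and its clone #3-1 ratio missed the threshold under 1 alternative.

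Lactate dehydrogenase is built from LDHA and LDHB subunits. LDHA, the subunit that favours lactate formation, was higher in clone #4-7 at all 3 probes, from 0.39 to 0.63, and differed between the clones by -0.83, -0.70 and -0.43. In clone #3-1 it was lower at A_32_P44568 and A_23_P47565, with -0.44 and -0.24, and 0.21, not past the threshold, at A_32_P231391. The 0.21 passed under 3 of 17 alternatives. The -0.24 missed the threshold under 10 of 17 alternatives and was -0.16 without normalization between arrays. The difference of -0.43, at A_32_P231391, missed it under 7 of 16 alternatives, and the clone #4-7 ratio at A_32_P44568 under 4 of 17. LDHB, the subunit of oxidative tissue, was higher in both clones, at 0.52 ± 0.02 and 0.34 ± 0.01 (SD, n = 2), and its difference of 0.18 ± 0.04 (SE) did not pass (limma adjusted p = 0.019). Its clone #4-7 ratio missed the threshold under 3 of 17 alternatives, and its difference passed under 3 of 16. A_32_P231391 was also the member probe well above background that differed most in Cy5, by -0.35, and its Cy3 difference was 0.08, so that its gap between the clones lay in the other channel from that of the remaining LDHA probes.

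EGLN1 and EGLN3, the oxygen-sensing hydroxylases among the members, moved together. EGLN2, a hydroxylase of the same family outside the members, was higher in both clones at A_24_P322395, with 0.64 and 0.82. Its difference of -0.19 did not pass. EGLN1, the main hydroxylase acting on the hypoxia-inducible factors, had -0.32 and -0.35 in clone #3-1 and 1.12 and 1.10 in clone #4-7 at A_23_P343935, 2.73 times apart (limma adjusted p = 4.46e-05). Its other probe gave 2.32 times. The clone #3-1 ratios of EGLN1 missed the threshold under 3 and 5 of 17 alternatives. EGLN3, an inducible hydroxylase of the same family, was -0.55 and -0.53 in clone #3-1 and 0.54 and 0.51 in clone #4-7, 2.09 times apart. For the 3 probes of EGLN1 and EGLN3 every clone #3-1 array was below 0 and every clone #4-7 array above it.

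Carbonic anhydrases 9 and 12 sit in the plasma membrane and regulate pH. CA9 had log2 ratios of -1.54 and -1.52 in clone #3-1 and 0.66 and 0.58 in clone #4-7, 4.44 times apart (limma adjusted p = 2.74e-05). Its Cy3 signal was 9.28 and 9.25 on the clone #3-1 arrays and 6.97 and 6.88 on the clone #4-7 arrays, near background, while Cy5 lay between 7.46 and 7.74. The clone #4-7 ratio, which is set against a signal not well above background on 1 of those arrays, is therefore the less certain. With the Feature Extraction processed signals it was 1.58, and with an offset of 0 in the background correction it missed the threshold. The difference between the clones was -2.15 and became -3.61 with the authors' table. CA12 was lower in both clones at its brightest probe, A_23_P372234, with -1.13 and -1.15 in clone #3-1 and -0.73 and -0.73 in clone #4-7. The other CA12 probe above background had -0.55, past the threshold, and -0.20, not past it. With the processed signals these were -1.16 and -0.51, the first missed the threshold under 6 of 17 alternatives and the second passed under 1. The difference between the clones at A_23_P372234, -0.41, missed it under 6 of 16. The dim probe A_23_P163336, which is among the 29 lower probes, had -0.26 in clone #3-1 and missed the threshold under 12 of 16 alternatives, with -1.89 from the processed signals.

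ADM, which encodes the vasodilator peptide adrenomedullin, had log2 ratios of 0.61 and 0.63 in clone #3-1 and -0.82 and -0.81 in clone #4-7. It was 2.71 times apart in the direction opposite to the 34 other member probes whose difference passed (difference 1.44 ± 0.04 SE, limma adjusted p = 4.33e-05). Its Cy3 signal was 14.35 and 14.09 on the clone #3-1 arrays and 15.53 and 15.59 on the clone #4-7 arrays, and its Cy5 signal lay between 14.71 and 14.97. VEGF, the angiogenic growth factor, depended on the probe. Its 4 probes gave -0.45, 0.17, 0.28 and -0.26 in clone #3-1, of which the first and the third passed, and 0.07, 0.60, 0.44 and 0.06 in clone #4-7, of which the second and the third passed. All 4 were lower in clone #3-1 than in clone #4-7 by 0.16 to 0.52, and 2 of these differences passed, which missed the threshold under 1 and 4 of 16 alternatives. At A_24_P12401, the third probe, the ratio missed it under 7 of 17 alternatives in clone #3-1, where it was 0.50 with the authors' table, and under 2 in clone #4-7. The mean of the VEGF probes was -0.06 in clone #3-1 and 0.29 in clone #4-7.

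Among genes of mitophagy and growth control, BNIP3 had the highest ratio of any member in clone #4-7 after SLC2A1. BNIP3, a mitochondrial protein that recruits the autophagy machinery, was 1.63 and 1.64 in clone #4-7 and -0.11 and -0.03, not past the threshold, in clone #3-1. The clones were 3.26 times apart (limma adjusted p = 4.33e-05). NDRG1, a stress-responsive protein, was 4.51 and 4.09 times apart at its probes, with -0.92 and -0.96 in clone #3-1 and 1.20 and 1.26 in clone #4-7 at A_23_P20494. DDIT4, the inhibitor of mTOR complex signalling known as REDD1, was lower in both clones, at -1.18 and -1.17 in clone #3-1 and -0.18 and -0.20 in clone #4-7. The clone #4-7 ratio of DDIT4 missed the threshold under 12 of 17 alternatives. Its clones were 1.98 times apart, and no arrays overlapped for BNIP3, NDRG1 or DDIT4.

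The collagen prolyl hydroxylases, which modify procollagen in the endoplasmic reticulum, were higher in clone #4-7 at all 3 probes, as were 16.1% of all probes. P4HA1 was -0.69 and -0.74 in clone #3-1 and 0.77 and 0.88 in clone #4-7, 2.91 times apart (limma adjusted p = 6.84e-05). P4HA2 was higher in clone #3-1 as well, at 0.39 and 0.59 for its probes, of which the first missed the threshold under 1 alternative, and reached 1.02 and 1.20 in clone #4-7. The clones thus differed in the same direction for P4HA1 and P4HA2, by -1.54 and by -0.63 and -0.60.

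**Figure D3:**
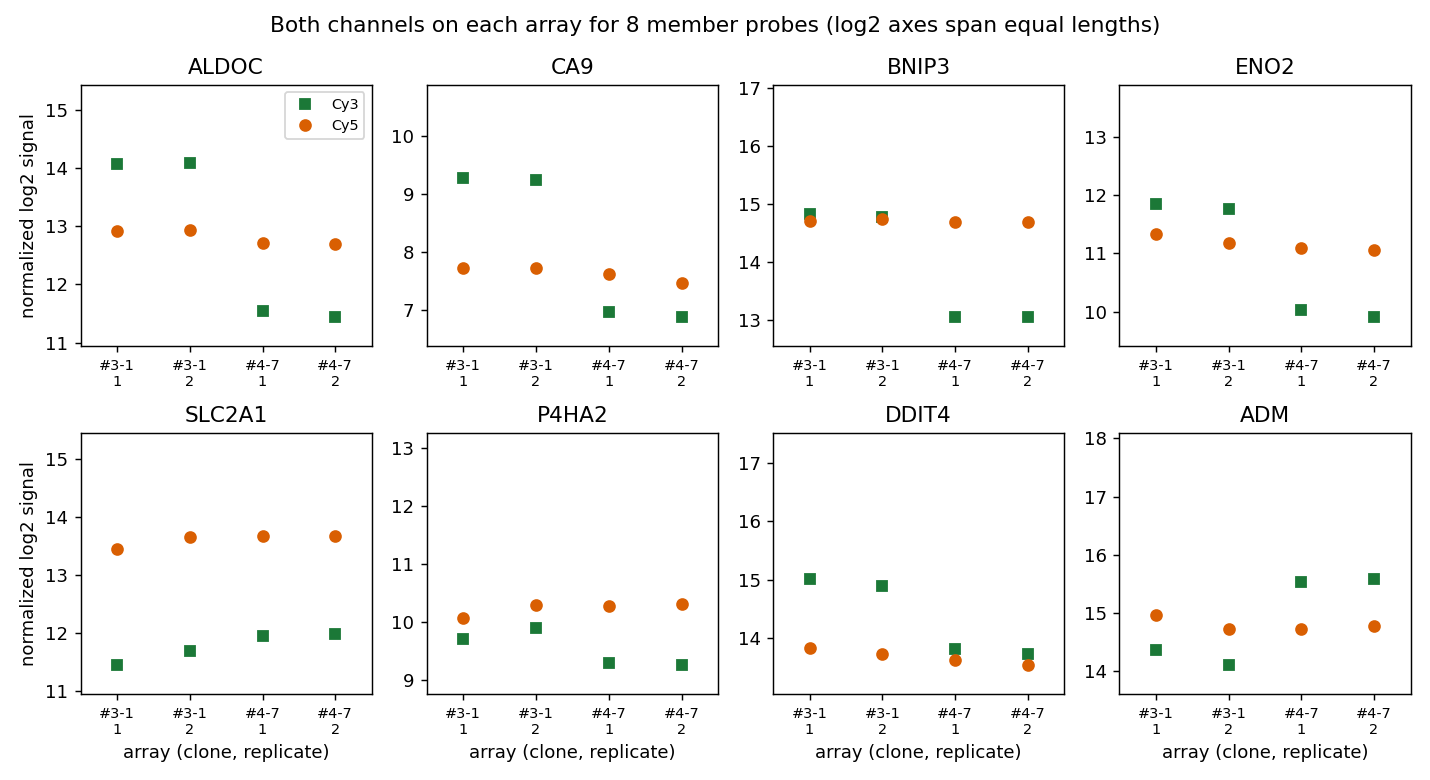
Normalized log2 signal of Cy3 (green squares, labelled as the empty vector control) and Cy5 (orange circles, labelled as the shRNA clone) on each array for 8 member probes, with the first-listed probe for P4HA2. All panels span the same length of log2 axis. Cy5 lies nearly level across the 4 arrays in every panel, and Cy3 changes between the clone #3-1 and the clone #4-7 arrays, downward for ALDOC, CA9, BNIP3, ENO2, P4HA2 and DDIT4 and upward for ADM and, by less than the threshold of limma's test, for SLC2A1.

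Genes of neighbouring pathways, listed from textbook knowledge and with no overlap with the members, give the setting. Over all probes, 16.3% were higher and 16.4% lower in clone #3-1, and 16.1% and 15% in clone #4-7. Among 50 probes of other glycolysis and fructose bisphosphate enzymes, 9 were higher and 7 lower in clone #3-1, 6 and 6 in clone #4-7, and the medians were 0.03 and -0.0033. In either direction 32% and 24% of this list passed, beside 32.7% and 31.1% of all probes. In at least 1 channel on every array, 34 of these 50 probes were well above background, beside 48 of the 53 member probes. The list thus holds relatively more dim probes than the members. LDHD, the D-lactate dehydrogenase, was -1.42 and -0.49. HKDC1, a hexokinase-like protein, was lower in both clones, at -1.09 and -1.29 for its probe with the largest ratio. PFKFB4, which makes an activator of phosphofructokinase, was 1.17 in clone #4-7 and 0.19, not past the threshold, in clone #3-1. PFKFB2, of the same family, was -0.75 in clone #3-1 at A_24_P413669 and 0.13, not past the threshold, in clone #4-7.

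Of 24 probes for monocarboxylate transport and pyruvate dehydrogenase, 7 were higher and 5 lower in clone #3-1 and 5 and 2 in clone #4-7. Together these were 50% and 29.2% of the list, beside 32.7% and 31.1% of all probes. The probes of SLC16A3, the lactate exporter MCT4, disagreed in sign, with -0.86 and -1.31 at A_24_P213134 and 0.62 and 0.87 at A_23_P158725. PPM2C, a pyruvate dehydrogenase phosphatase, and PC, pyruvate carboxylase, were lower in clone #3-1, at -0.61 and -0.50, and at 0.13 and 0.23 did not pass in clone #4-7. DLAT, a subunit of pyruvate dehydrogenase, was 0.44 and 0.49 at its probe with the largest ratio.

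The pentose phosphate pathway, which makes NADPH and ribose, had 4 of 21 probes higher and 6 lower in clone #3-1, and 4 and 5 in clone #4-7. Together these were 47.6% and 42.9% of the list, beside 32.7% and 31.1% of all probes. PRPS1, which activates ribose phosphate, was -1.64 and -2.51 at A_23_P72961. The transketolases TKT and TKTL1 were -0.99 and -0.27, and 0.59 and 0.79. In the tricarboxylic acid cycle 15 of 34 probes were lower and 1 higher in clone #3-1, and 2 and 2 in clone #4-7, with medians of -0.20 and 0.03. That was 47.1% and 11.8% of its probes in either direction. IDH2, mitochondrial isocitrate dehydrogenase, was -1.09 in clone #3-1 and -0.20, not past the threshold, in clone #4-7. SUCLG2 and SUCLA2, subunits of succinyl-CoA synthetase, were -0.82 and -0.36, and 0.60 and 0.62 at A_23_P117157. SDHD, a subunit of succinate dehydrogenase, was between -0.34 and -0.38 at its 4 probes in clone #3-1 and did not pass in clone #4-7.

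Of 27 probes for the hypoxia-inducible factors and their regulators, 9 were higher and 4 lower in clone #3-1 and 10 and 3 in clone #4-7, with medians of 0.11 and 0.06. In either direction 48.1% of this list passed in each clone, beside 32.7% and 31.1% of all probes. EPAS1, the alpha subunit of HIF-2, was -0.84 and 0.49 at A_23_P210210, and the difference of -1.33 passed (limma adjusted p = 4.69e-05). EGLN2 was 0.64 and 0.82, ARNT2, a partner subunit, was 0.78 and 0.44, and CITED2, which competes for a coactivator, was -0.32 and -0.71. Of 63 probes for other reported hypoxia targets, 29 were lower and 7 higher in clone #3-1, and 12 and 23 in clone #4-7, with medians of -0.17 and 0.08. That was 57.1% and 55.6% of the list in either direction. The difference between the clones was lower in clone #3-1 for 28 of the 63 probes and higher for 7. Together these were 55.6% of the list, beside 22.6% of all probes. Those higher in clone #3-1 than in clone #4-7 included CXCR4, a chemokine receptor, at 1.20 and -1.04, and EDN1, which encodes endothelin, at -0.14 (not past the threshold) and -1.89. KLF6, a transcription factor, was -0.85 and -1.88 at A_24_P252739, and HMOX1, heme oxygenase, was 0.49 and 1.45.

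**Figure D4:**
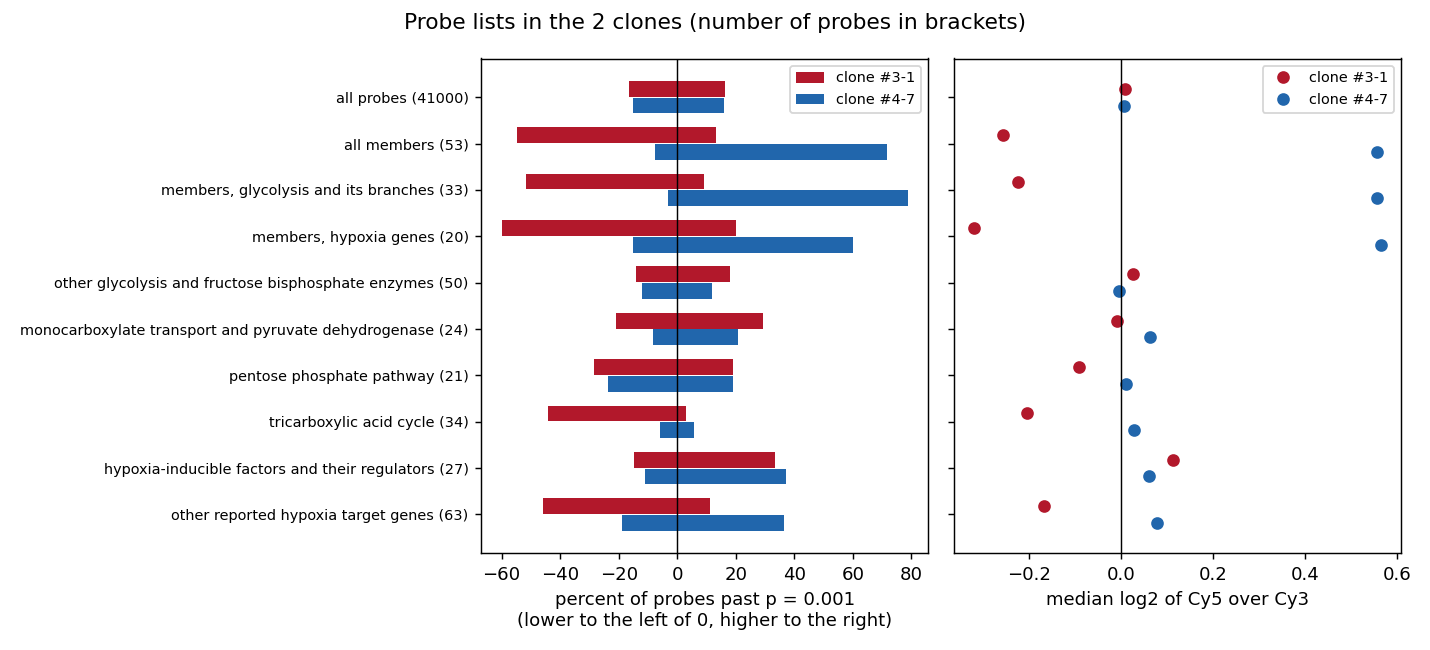
Left, percent of the probes of each list past the threshold of limma's test, with lower probes drawn to the left of 0 and higher probes to the right, for clone #3-1 (red) and clone #4-7 (blue). Right, the median log2 ratio of Cy5 over Cy3 of the same lists. The lists differ in their share of dim probes. The member lists have negative medians in clone #3-1 and medians of 0.56 to 0.57 in clone #4-7, and no other list has a median above 0.08 in clone #4-7.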

How the data were processed

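Total RNA of 2 N-BLR shRNA clones of HCT116 was read against empty vector RNA on 4 Agilent 2-colour arrays, which lie on 1 slide. The authors deposited, for each spot, the intensity of both channels and of the local background, processed intensities, the log10 ratio of red over green, and flags of 0 or 1 (another kind of value) for outliers, saturation and signal above background. A further deposited table holds log10 ratios of the 4 arrays, which was turned into log2 ratios as an alternative. The submitters' processing notes name Agilent Feature Extraction 8.5.1.1, whereas the file header gives 9.5.3.1. Positions follow build hg17, which the files use. The labels speak of lentiviral transduction and the methods of transfection with a shRNA plasmid, so how the clones were made differs between sources.

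Mean intensities were corrected with normexp (offset 50) fitted on all spots, outlier and control spots were left out, and log2 ratios were normalized within arrays by loess and between arrays by quantiles. Spots of a probe were averaged. The quantile step brings both channels of all arrays to a common distribution, which removes any difference in total signal. A linear model holding 1 term per clone was fitted over all 41000 probes with limma 3.58.1 in R 4.3.3, and the ratio of each clone and the contrast between clones were tested with moderated statistics at an unadjusted p of 0.001, the threshold in the methods, beside Benjamini-Hochberg adjusted p over all probes. The control counts as 1 sample, so its own spread is left out. The number of arrays limits the precision. The procedure was tested on simulated data. Errors are the SD of 2 arrays or the SE of the model.

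The members and the lists were chosen with earlier results of these data known. Named were every member and, from each other list, up to 4 genes past the threshold with the largest ratio in either clone, with CDH1 and VIM to check the direction. Not every gene the rule covers is reported here. Alternatives were other background corrections, processed intensities, the table of ratios, other normalizations, filters, an intensity trend, the adjusted threshold, separate fits, the replicate block, means over the probes of a gene, and each array left out. Comparisons of single channels were added after the data were seen.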

Additional observations from a re-analysis of the deposited data

Results flagged for a closer look

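The effect relative to the labelled control differed between clone #3-1 and clone #4-7 by the test of that difference for 35 member probes. Of these, 34 were lower in clone #3-1 and 1 higher, where 11.6% and 11% of all probes were lower and higher. For 22 of the 53 member probes, all among these 35, each clone also passed by itself with opposite signs, as did 3.6% of all probes. Only these 22 are listed here, and the others of the 35 are given with their genes above. The log2 differences, clone #3-1 minus clone #4-7, were -0.58 for HK1, -1.62 and -1.53 for HK2, -1.24 for ALDOA (A_23_P88963), -2.36 for ALDOC, -0.94 for GAPDH and -1.02 for PGK1 (A_24_P604649). They were -0.66 for ENO1 (A_23_P137391), -1.66 for ENO2, -0.70 and -0.83 for LDHA (A_23_P47565 and A_32_P44568), -1.09 and -1.08 for PDK1 and -1.21 for PDK3. Among the hypoxia genes they were -1.45 and -1.21 for EGLN1, -1.07 for EGLN3, -2.15 for CA9, -2.17 and -2.03 for NDRG1, -1.54 for P4HA1 and 1.44 for ADM.

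A signal also appeared in data outside the comparison of ratios: 32 member probes differed between the arrays of the clones in Cy3, the channel labelled as 1 common control, while 0 did in Cy5. Over all probes 18.3% differed in Cy3 and 0.0927% in Cy5. The cause of this signal was not tested.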

How the results depend on the processing

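Of 113 results of member probes past the threshold, in a clone or between the clones, 0 changed direction under any of the 17 alternatives run, and between 0 and 31 missed the threshold under an alternative, most with plain background subtraction. The adjusted threshold was looser than p under 0.001 here and could lose no result, and leaving out saturated spots removed no member spot. The probes lower in clone #3-1 fell from 29 to 16 with plain subtraction and to 18 with the processed signals of Feature Extraction. Those lower in clone #4-7 fell from 4 to 2 with plain subtraction and with an offset of 0. With an intensity trend in the prior variance, and with the adjusted threshold, the probes higher in clone #3-1 went from 7 to 12 and those higher in clone #3-1 than in clone #4-7 from 1 to 3. The latter count was 2 with the authors' table and when only probes well above background were fitted. The median of the members in clone #3-1 was -0.31 with an offset of 0, -0.34 with plain subtraction and -0.31 with only probes well above background, and in clone #4-7 it was 0.53 without normalization between arrays.

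Leaving out each array in turn gave 4 to 6 probes higher and 20 to 25 lower in clone #3-1, 32 to 37 higher and 2 to 3 lower in clone #4-7, and 1 higher and 30 to 33 lower between the clones. The medians ranged from -0.27 to -0.23 in clone #3-1 and from 0.55 to 0.56 in clone #4-7. In Cy3 31 to 32 member probes then differed between the arrays of the clones and in Cy5 0 to 1. Where a clone keeps 1 array, it is assumed to vary like the other.

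Arrays with the same replicate number are linked in the labels only by that number. Their deviations from the clone means correlated at -0.0132 across probes. This cannot show whether other steps were shared, because shared steps can cancel in normalized ratios. With the replicate block, 7 and 26 probes were higher and lower in clone #3-1, 37 and 3 in clone #4-7, and 1 and 34 between the clones. With the mean of a gene's probes well above background in place of its brightest probe, VEGF in clone #3-1 was -0.06 and no longer past the threshold, while VEGF in clone #4-7 (0.29) and PGK1 (-0.15) and ENO1 (-0.27) in clone #3-1 now passed it. Signal near background limits SLC2A3, CA9 in clone #4-7 and the dim probes of HK1 and CA12.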
